A study of Mus musculus with 6 samples.

Results

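Keratin-associated proteins are small proteins of the hair shaft, and 51 genes of this family were measured among 22180 genes in sorted mouse hair follicle stem cells. A gene was counted as a member when a feature of the array (a transcript cluster with 1 value per array) carried exactly 1 gene symbol beginning with Krtap and a digit. The brightest feature by the mean of the 6 arrays stood for each gene. Only Krtap5-1 had more than 1 such feature. A further 10 features named a Krtap gene together with other genes and were left out, and Krtap2-4, Krtap3-2, Krtap3-3 and Krtap15 appeared only among those.

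The cells came from skin at postnatal day 49, and CD34 and α6-integrin were the surface markers of the sort. There were 3 arrays of wild type (WT) mice and 3 of mice with the K14-sPLA2-IIA transgene (TG). The transgene places a secreted phospholipase, sPLA2-IIA, under a keratin 14 promoter, which is active in the basal layer of the epidermis and in the follicle's outer root sheath. The labels give no strain, sex or number of mice per array, and nothing says whether arrays of a genotype came from separate animals. The p-values therefore weigh a genotype difference against the spread between these arrays, which need not be the spread between animals.

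Hair shaft cells of the growing follicle fill with keratin filaments, and keratin-associated proteins form the cysteine-linked matrix between them. The family is grouped by amino acid content into high sulfur and ultra-high sulfur proteins, which are rich in cysteine, and high glycine-tyrosine proteins. Their genes are switched on late, in the differentiating cortex and cuticle above the hair bulb. Bulge stem cells of a resting follicle are not a usual source of their transcripts. By family number 16 members were high sulfur, 17 ultra-high sulfur and 15 high glycine-tyrosine, and 3 (Krtap28-13, Krtap31-1 and Krtap31-2) had no class in the list used. Krtap16-3 was counted as high sulfur by its number, although it belongs to a cluster of glycine-tyrosine genes. In the RefSeq annotation of GRCm38.p6, 23 members were on chromosome 16, 19 on chromosome 11, 5 on chromosome 7, 3 on chromosome 10 and 1 on chromosome 1. The genome build behind the array values is not given in the sources used here.

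The 250 bases before the transcription start are shown for the member of each class whose value varied most over the 6 arrays, as 1 example per class. The sequences are RefSeq's, of build GRCm38.p6, written 5′ to 3′ on the strand of the gene. Krtap8-1 (high glycine-tyrosine) covers chr16:89487953-89488202 on the minus strand, Krtap11-1 (high sulfur) chr16:89571184-89571433 on the minus strand, and Krtap5-4 (ultra-high sulfur) chr7:142303252-142303501 on the plus strand. Capitals mark matches on either strand to TATAAA (the core of the TATA box), CTTTGA (a core of TCF/LEF sites) and TCGTAAA (a core of HOXC13 sites). No matches overlapped in these 3 sequences.
Krtap8-1: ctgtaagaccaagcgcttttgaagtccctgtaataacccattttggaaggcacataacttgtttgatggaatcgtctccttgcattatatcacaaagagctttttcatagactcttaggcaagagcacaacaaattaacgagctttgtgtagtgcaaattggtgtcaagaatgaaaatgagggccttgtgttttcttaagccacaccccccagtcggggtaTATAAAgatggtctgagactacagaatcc
Krtap11-1: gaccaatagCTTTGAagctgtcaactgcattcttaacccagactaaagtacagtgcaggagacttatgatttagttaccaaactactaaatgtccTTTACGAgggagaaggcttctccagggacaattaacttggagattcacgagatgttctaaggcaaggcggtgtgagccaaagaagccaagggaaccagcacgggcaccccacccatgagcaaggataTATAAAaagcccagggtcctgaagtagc
Krtap5-4: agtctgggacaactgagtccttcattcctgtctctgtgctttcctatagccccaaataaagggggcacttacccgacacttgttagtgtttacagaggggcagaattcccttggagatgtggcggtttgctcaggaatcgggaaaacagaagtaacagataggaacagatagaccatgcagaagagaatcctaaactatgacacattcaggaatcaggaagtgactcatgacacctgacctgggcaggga
Krtap8-1 and Krtap11-1 each had TATAAA on the gene's strand, beginning 29 and 28 bases before the start. Krtap11-1 also had CTTTGA beginning 241 bases before the start and, on the opposite strand, TCGTAAA between 155 and 149 bases before it. Krtap5-4 held none of these letters in this window.

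Promoters of 46 members were in the RefSeq table. TATAAA was present on either strand in 38 of them, or 82.6%, against 12.4% of all 32851 promoter entries of the same length. A narrower window, 40 to 21 bases before the start and on the gene's strand, held it in 28 of the 46, or 60.9%, against 1.87% of all entries. In that window 12 of 16 ultra-high sulfur promoters, 7 of 13 high sulfur promoters, 6 of 14 high glycine-tyrosine promoters and 3 of 3 without a class had the match. In the Krtap19 family 1 of 6 promoters had it, and in the Krtap4 family 6 of 8. CTTTGA was found in 11 of 46 (23.9%, against 13.8% of all entries), and TCGTAAA in 1 of 46 (2.17%, against 0.478%), the promoter of Krtap11-1. Such matches describe the letters and do not show that a factor binds.

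All values are log2 expression as deposited. The base was read from the values and is not stated, and if it is not 2 the folds below do not hold. No detection call was used. Members read low on the arrays. Their means over the 6 arrays ran from 3.7 for Krtap19-2 to 8.36 for Krtap5-1, with a median of 4.66, and 45 of 51 lay below the median of all genes (6.55). The lower quartile of all genes (5.11) exceeded 36 of them. A feature's brightness depends on its probes as well as on its transcript, so these levels do not rank the genes. Family members resemble each other in sequence, so a feature may also pick up transcripts of a relative, and single-gene values are uncertain in that respect. In RNA of sorted cells, fewer cells of a type and less RNA per cell cannot be told apart.

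The sort was checked against its markers, and the transgene against Pla2g2a. The keratin genes Krt14 and Krt15, markers of the basal layer and the bulge, read 13.21 or more on every array. Cd34 itself ranged from 9.65 to 13.07, highest on WT-3 and TG-3. Krt1 and Krt10, which mark suprabasal epidermis, read 11.94 or more on every array. The array medians of all features lay between 5.90 and 5.99. Pla2g2a, the gene of the phospholipase, lay between 5.75 and 6.77 in WT and between 12.39 and 12.61 in TG.

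**Figure D1:**
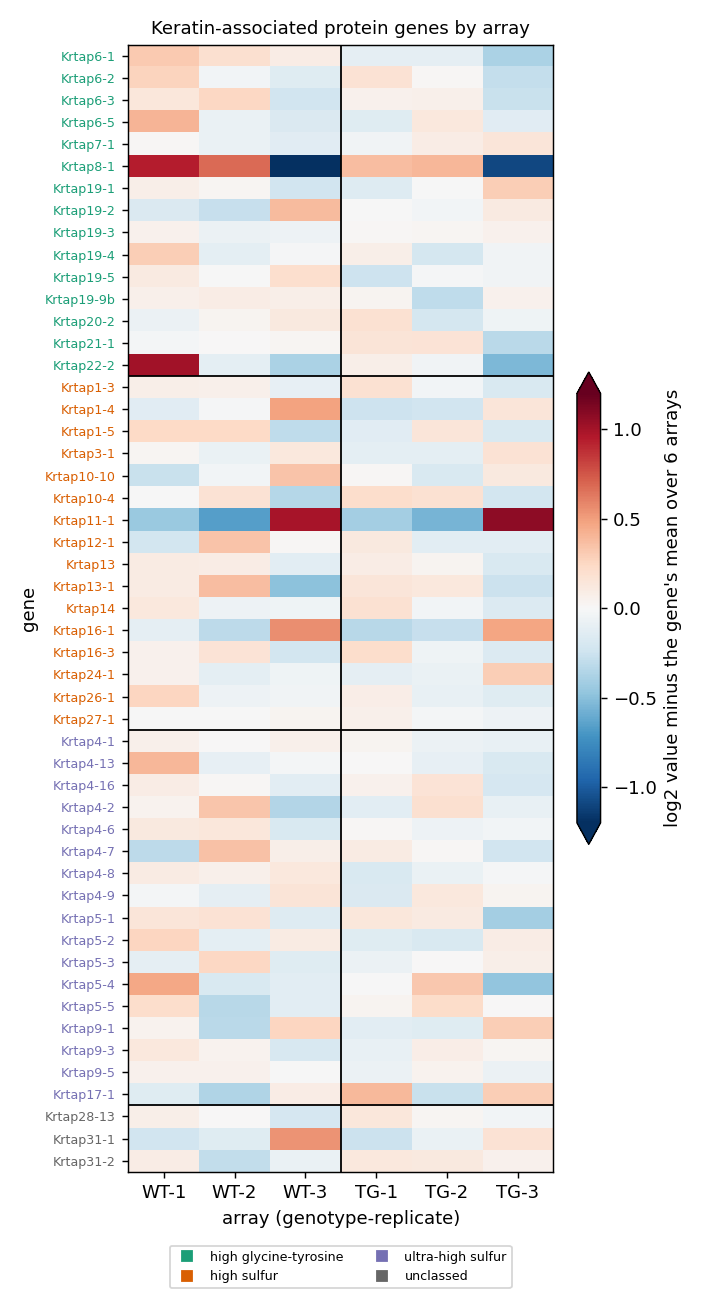
Log2 value of each of the 51 keratin-associated protein genes (rows, grouped by class) on each of the 6 arrays (columns), as the difference from the gene's mean over the arrays; the colour scale ends at 1.2 log2 units either way. Krtap8-1 is low and Krtap11-1 high on WT-3 and TG-3, Krtap22-2 is high on WT-1, and most other rows are pale.

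No keratin-associated protein gene passed the test between genotypes. Differences ran from -0.40 (Krtap6-1) to 0.28 (Krtap17-1) on the log2 scale, and no member reached 0.5 in either direction. Outside the rule, a feature naming Krtap2-4 beside other genes differed by -0.59. It read 8.46, 8.54 and 8.37 in WT and 7.86, 8.25 and 7.51 in TG. Other features naming Krtap2-4 differed by -0.06 and -0.25. Among the members, the spread was as follows. The median was -0.043, against -0.0075 over all 22180 genes, and 36 of 51 members were below 0, where 52.1% of all genes were. In limma, 0 of 51 members had a Benjamini-Hochberg adjusted p under 0.05, as against 0.00451% of all genes, which is Pla2g2a alone. Unadjusted, 1 member was lower in TG at a p under 0.05, where 0.843% of all genes were, and 0 were higher, where 1.93% were (2.77% either way). With the replicate number as a block, 0 members passed the adjusted threshold (0.00451% of all genes). In that fit 1 member was lower at an unadjusted p under 0.05, against 3.86% of all genes, and 0 were higher, against 4.59%.

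The intervals show what these arrays could have missed. The 95% interval of the difference held 0 for 50 of 51 members, and it lay within 1 log2 unit of 0 for 48 and within 0.5 for 27. The half-width had a median of 0.39. The 3 genes whose intervals passed 1 unit were Krtap8-1 (-1.83 to 1.4), Krtap11-1 (-1.30 to 1.45) and Krtap22-2 (-1.24 to 0.55), all 3 of which varied widely within a genotype. For the remaining 48 the bounds reached -0.82 and 0.79, so a genotype difference of 1 log2 unit or more on this scale lay outside their intervals. Values this near the bottom of the array's scale can understate a difference in transcript.

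**Figure D2:**
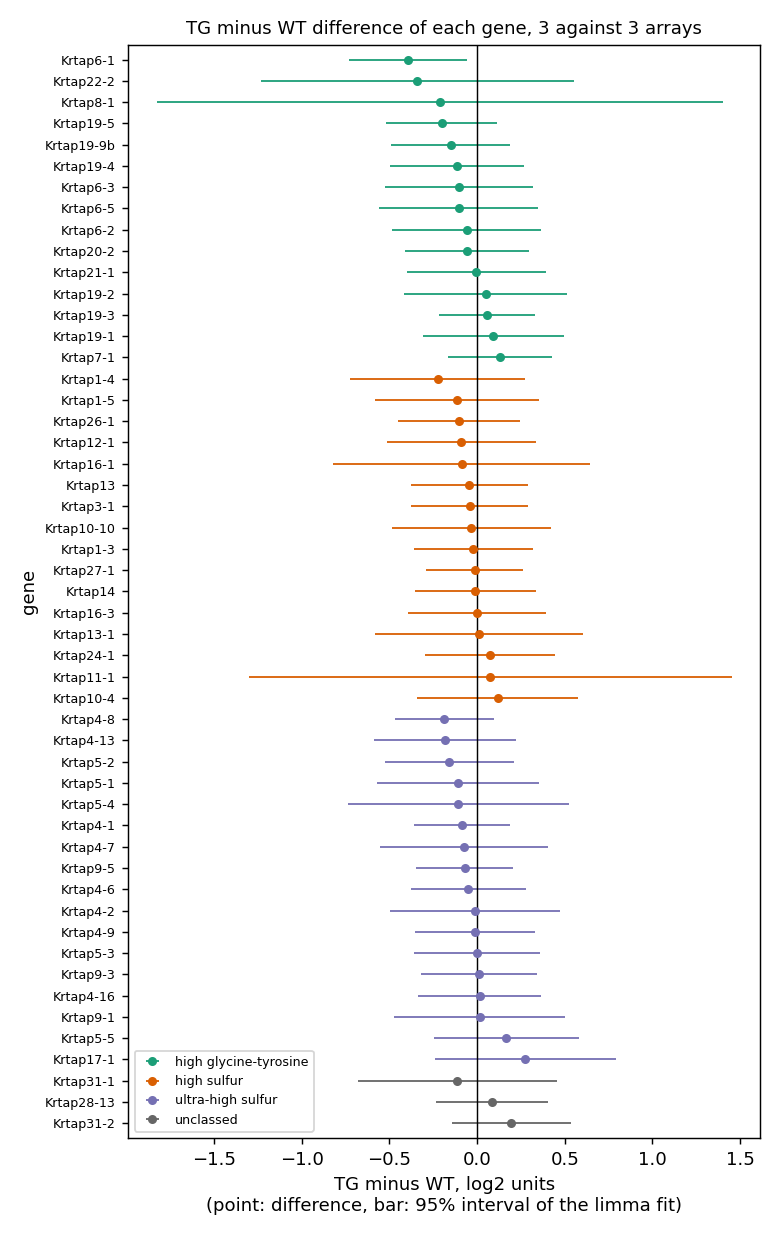
TG minus WT difference on the log2 scale (horizontal axis) for each of the 51 genes (vertical axis, grouped by class and ordered by difference), with the 95% interval of the limma fit of 3 against 3 arrays. All intervals but that of Krtap6-1 hold 0, and the widest belong to Krtap8-1 and Krtap11-1.

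The arrays of the 2 genotypes did not overlap for 4 members, or 7.84%, where 7.2% of all genes were so placed. All 4 were lower in TG, a direction that held for 3.21% of all genes, and 0 were higher (3.99%). The share over both directions was close to the background. The 4 genes were Krtap6-1, Krtap19-5 and Krtap19-9b of the high glycine-tyrosine class and Krtap4-8 of the ultra-high sulfur class. Quantile normalization left 3 members without overlap (7.45% of all genes), and taking every feature as a unit left 4 (7.51% of features). Of the 6 members above the median level of all genes 0 were so placed (9.01%). Smaller groups separate more readily. The count was 8 without WT-1 (13.4%), 7 without WT-2 (13.4%), 12 without WT-3 (23.2%), 8 without TG-1 (11.4%), 6 without TG-2 (15.8%) and 10 without TG-3 (20.1%). It was 19 of 51 without both arrays numbered 3, where the background was 37.7%.

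Krtap6-1, a high glycine-tyrosine gene of the chromosome 16 cluster, had the largest difference of the 51. Its WT arrays 1 to 3 gave 4.27, 4.14 and 4.04, and its TG arrays gave 3.85, 3.85 and 3.58. All WT arrays thus exceeded all TG arrays, by a small step near the bottom of the scale. The means were 4.15 ± 0.11 in WT and 3.76 ± 0.16 in TG (SD, n = 3 each), a difference of -0.40 ± 0.14 (SE), and limma gave an unadjusted p of 0.0273 and an adjusted p of 0.99996. With 3 arrays against 3, the smallest two-sided p of an exact permutation test is 0.1. Blocked by replicate number, its adjusted p was 0.538 in limma. A brighter feature that names Krtap6-1 beside 2 other genes, and so fell outside the rule, had means of 7.13 in WT and 7.16 in TG.

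The other 3 genes without overlap differed by less. Krtap4-8 read 4.47, 4.44 and 4.50 in WT and 4.19, 4.30 and 4.36 in TG, a difference of -0.19 ± 0.12 (SE). Krtap19-5 read 4.53, 4.42 and 4.63 in WT and 4.17, 4.41 and 4.38 in TG, or -0.20 ± 0.13. Its TG-2 value lay just under WT-2. For Krtap19-9b the WT arrays were close together at 4.18, 4.21 and 4.19, while TG arrays read 4.15, 3.81 and 4.17, so that TG-2 supplied most of the difference of -0.15 ± 0.14. The adjusted p of all 3 was 0.99996 in limma.

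By class the medians of the TG minus WT difference were -0.10 for the 15 high glycine-tyrosine genes, -0.026 for the 16 high sulfur genes and -0.050 for the 17 ultra-high sulfur genes. In these classes 11, 12 and 12 members respectively were below 0. Each array's median deviation from the genes' means, over the whole family, had an SD of 0.0475 within genotypes (n = 3 each). That is a spread of single arrays and not of a TG minus WT difference. The class medians were not tested. Within the high glycine-tyrosine class, Krtap7-1 lay on the other side, at 0.13 ± 0.12 (SE). In the high sulfur class the smallest p-values belonged to Krtap1-4, at -0.22 ± 0.21, and Krtap26-1, at -0.10 ± 0.15. Neither difference was far from its SE.

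Krtap17-1, an ultra-high sulfur gene next to the keratin genes of chromosome 11, had the highest TG minus WT difference. It read 7.82, 7.60 and 8.06 in WT and 8.35, 7.70 and 8.25 in TG. TG-2 fell among the WT arrays, so the genotypes overlapped, and the difference of 0.28 ± 0.22 (SE) had an adjusted p of 0.99996 in limma. Krtap31-2, without a class here, read 4.63, 4.24 and 4.46 in WT and 4.67, 4.66 and 4.59 in TG, a difference of 0.20 ± 0.14. Krtap28-13 differed by 0.09 ± 0.13.

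The steadiest members hardly moved over the 6 arrays. The range was 0.13 for Krtap19-3, Krtap9-5 and Krtap27-1, 0.15 for Krtap4-1, 0.28 for Krtap7-1 and 0.29 for Krtap13. Over the 51 genes the range had a median of 0.51, and over all genes 0.59. A range above 1 unit was found in 3 members, or 5.88%, against 18.6% of all genes. These were Krtap8-1, Krtap11-1 and Krtap22-2, all on chromosome 16. The background was not matched for level. Of the 51 members 36 lay below the lower quartile of all genes, where a small range need not mean a steady transcript.

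Krtap8-1, a high glycine-tyrosine gene, varied most, and it did so within each genotype. Arrays 1 to 3 gave 6.13, 5.87 and 3.88 in WT and 5.56, 5.59 and 4.10 in TG. The array numbered 3 was the lowest of its genotype in both, by -2.12 in WT and -1.48 in TG against the mean of the other 2 arrays, or 4.34-fold and 2.79-fold. The TG minus WT difference was -0.21 ± 0.68 (SE), with an adjusted p of 0.99996 in limma. Its direction turned without WT-1 (0.21), WT-2 (0.076) or TG-3 (0.28).

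Krtap11-1, a high sulfur gene, did the opposite. Arrays 1 to 3 gave 4.32, 4.10 and 5.75 in WT and 4.36, 4.21 and 5.84 in TG. The array numbered 3 was the highest in both genotypes, by 1.54 in WT and 1.55 in TG, or 2.91-fold and 2.94-fold, and the other 4 arrays lay within a narrow band. The TG minus WT difference was 0.08 ± 0.58 (SE), and it turned to -0.13 without WT-1, -0.23 without WT-2 and -0.44 without TG-3.

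Krtap8-1 was the 1 member that was lower by 1 log2 unit or more on the arrays numbered 3 of both genotypes, and Krtap11-1 the 1 member that was higher. Over all genes 2.62% were lower and 1.21% higher by that measure, and 3.83% were either, so 2 of 51 is near the background share. Smaller shifts the same way were seen in Krtap16-1, a high sulfur gene on chromosome 11, by 0.76 in WT and 0.78 in TG. It read 5.58, 5.37 and 6.24 in WT and 5.35, 5.41 and 6.16 in TG. Krtap22-2, a high glycine-tyrosine gene, was lower on the arrays numbered 3, by -0.82 in WT and -0.55 in TG. Its WT shift owed much to a high WT-1 (6.03), since WT-2 read 4.91 and WT-3 4.65. Krtap31-1 was higher on the arrays numbered 3 by 0.72 and 0.34, and Krtap13-1 lower by -0.73 and -0.40. In all, 37 of 51 members lay on the same side in both genotypes, where 75.2% of all genes did.

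Marker genes shifted on the same arrays, and all 8 suprabasal genes lay below the mean of the other 2 arrays there in both genotypes. Lor, 1 of the 8, was nevertheless lowest in TG on TG-1 (9.71, against 10.12 on TG-3). Averaged over its 8 genes, the suprabasal list stood at 11.86, 11.86 and 10.15 in WT and at 10.94, 11.87 and 9.86 in TG (arrays 1 to 3). Of the 8 genes, 5 were lower by at least 1 unit on the arrays numbered 3 of both genotypes, where 2.62% of all genes were. Ivl, encoding the cornified envelope protein involucrin and picked here after its values were seen, read 11.79, 11.66 and 8.71 in WT and 10.80, 11.80 and 8.31 in TG. Like Krtap8-1, it was lowest on the 2 arrays numbered 3. Some hair keratin, inner root sheath and hair shaft genes, given further below, were lower there as well. The mean of 6 T-cell genes was also lower there, at 7.21 on WT-3 and 6.93 on TG-3, against 8.24 and 8.78 on the other WT arrays and 7.66 and 9.07 on the other TG arrays. Between genotypes, 8 of 8 suprabasal genes and 6 of 6 T-cell genes were below 0 (medians -0.34 and -0.15), where 52.1% of all genes were. Genes of a list are not replicates of each other, and 0 of either list passed. In the fibroblast list 6 of 6 genes were above 0 (median 0.39), and in the endothelial list 4 of 4 (median 0.30). Over all 22180 genes, 10619 were above 0. Of 6 macrophage and Langerhans cell genes 5 were below 0 and 1 above (median -0.14). On the arrays numbered 3 of both genotypes, 2 of these 6 were lower by at least 1 unit, against 2.62% of all genes. In each of these lists 0 passed. The arrays of 1 of the 6 fibroblast genes, Pdgfra, did not overlap between genotypes (16.7%, against 7.2% of all genes). The mean of 7 melanocyte genes shifted by -0.84 on WT-3 and by 0.31 on TG-3.

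Most bulge markers were higher on the arrays numbered 3, with a median shift of 1.26 in WT and 0.41 in TG. The mean of 11 bulge genes was 10.2 on WT-1 and WT-2 and 11.4 on WT-3, and it was 11.2, 10.2 and 11.3 on TG arrays 1 to 3. Of the 11 genes, 3 (Cd34, Lgr5 and Tbx1) were higher by at least 1 unit on the arrays numbered 3 of both genotypes, where 1.21% of all genes were. By the same measure Sox9, Lhx2, Nfatc1, Tcf7l1 and Col17a1 were also higher there in both genotypes, by less than 1 unit in TG. The highest TG array was TG-1, however, for Sox9 (12.16, against 11.91 on TG-3), Lhx2 (10.96 against 10.43) and Tcf7l1 (9.49 against 9.34). Itga6, which encodes the α6-integrin of the sort, was lower there by -0.31 in WT and -0.40 in TG, and Krt14 by -0.41 and -0.35. Krt15 shifted by 0.09 and -0.04. Across the genotypes 9 of the 11 bulge genes were above 0 (median 0.29), where 10619 of all 22180 genes were, and 0 passed. Cd34 read 9.78, 9.89 and 13.07 in WT and 11.57, 9.65 and 12.42 in TG. Krtap11-1 differed from Cd34 on TG-1, where Cd34 was between its neighbours and Krtap11-1 was at the level of the low arrays. The endothelial list (4 genes) was higher on the arrays numbered 3 by 0.75 in WT and 0.73 in TG. The part of these cell types in the Krtap values was not tested.

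**Figure D3:**
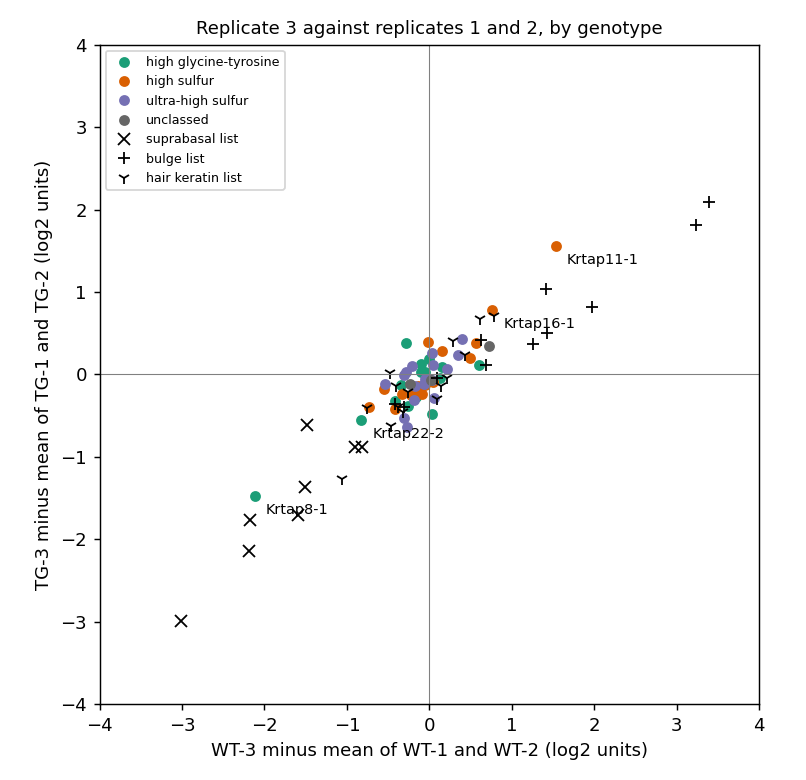
For each gene, the value on WT-3 minus the mean of WT-1 and WT-2 (horizontal axis, log2 units) against the same shift for TG-3 (vertical axis); circles are keratin-associated protein genes by class, crosses the suprabasal list, plus signs the bulge list and 3-armed marks the hair keratin list. Krtap8-1 lies at -2.12 and -1.48, Krtap11-1 at 1.54 and 1.55, and most members lie near 0.

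Krtap22-2 was also far higher on WT-1 than on any other array. Arrays 1 to 3 gave 6.03, 4.91 and 4.65 in WT and 5.10, 4.98 and 4.49 in TG, so WT-1 exceeded every other array by almost a whole unit. The TG minus WT difference was -0.34 ± 0.37 (SE) with WT-1 and 0.077 without it. The same array was the highest of the 6 for 14 of 51 members, or 27.5%, against 19.8% of all genes. Most inner root sheath genes, which mark the sheath around the growing hair, were highest on WT-1 too. The mean of 9 such genes was 6.57 on WT-1, between 5.31 and 5.53 on the other WT arrays, and between 5.35 and 5.84 on the TG arrays. Among them Krt25 read 7.57 on WT-1 and between 5.42 and 6.12 on the other 5 arrays. The exceptions were Krt26, at 4.53 on WT-1 and 4.66 on TG-1, and Krt74, at 5.11 on WT-1 and 5.28 on WT-2. The part of these genes' cells in the Krtap22-2 value was not tested.

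**Figure D4:**
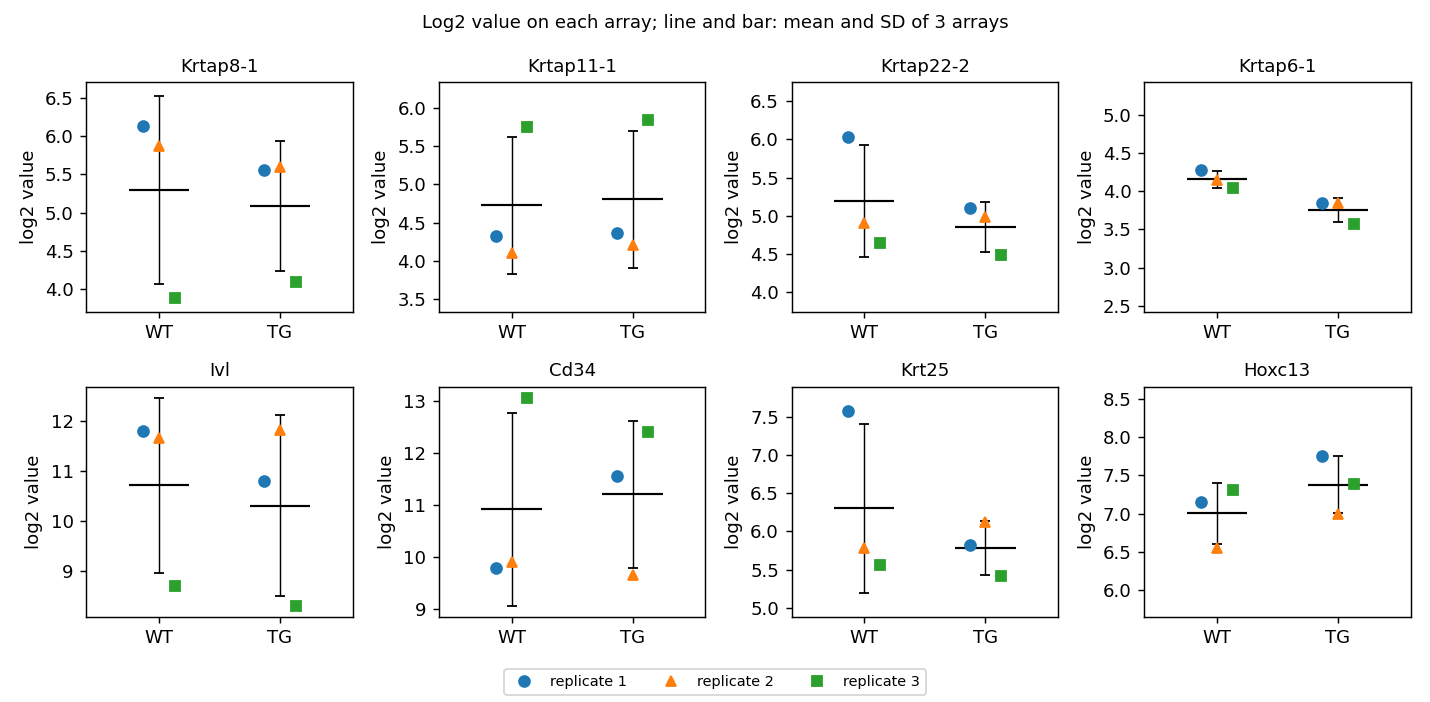
Log2 value on each array (marker shape and colour give the replicate number) for 4 keratin-associated protein genes and for Ivl, Cd34, Krt25 and Hoxc13, by genotype; lines and bars are the mean and SD of 3 arrays, and vertical axes differ between panels. The squares of replicate 3 sit low for Krtap8-1 and Ivl and high for Krtap11-1 and Cd34, WT-1 sits high for Krtap22-2 and Krt25, and for Krtap6-1 all TG points lie below all WT points.

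Several ultra-high sulfur genes were brighter than most of the family, although brightness also depends on the probes. Krtap5-4 had the widest range of that class, 0.94, and read 7.06, 6.40 and 6.46 in WT and 6.58, 6.91 and 6.11 in TG. Its highest array was WT-1 and its lowest TG-3, and the difference of -0.11 ± 0.26 (SE) lay well inside that spread. Krtap5-1, with the highest mean of the members, read 8.51, 8.53 and 8.21 in WT and 8.50, 8.47 and 7.95 in TG. In each genotype it was lowest on the array numbered 3, and it differed by -0.11 ± 0.19 between genotypes. Krtap4-13 read 8.34, 7.84 and 7.92 in WT and 7.95, 7.84 and 7.76 in TG, and Krtap9-1 read 7.93, 7.57 and 8.15 in WT and 7.77, 7.75 and 8.19 in TG. These 2, chosen after their values were seen, overlapped between genotypes.

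Hair keratins, the filament proteins that keratin-associated proteins embed, gave no call between genotypes either. Of 16 listed genes 15 were measured, 0 passed in either direction, and the median TG minus WT difference was -0.048 with 6 above and 9 below 0. Krt84 (0.20 ± 0.13, SE), Krt36 (-0.23 ± 0.14) and Krt82 (-0.18 ± 0.16) had the smallest p-values. Krt84 was the 1 of 15 whose arrays did not overlap between genotypes, or 6.67%, where 7.2% of all genes were so placed. Averaged over the list, arrays 1 to 3 stood at 6.38, 6.18 and 6.18 in WT and at 6.29, 6.24 and 6.13 in TG. As with the keratin-associated proteins, WT-1 was the highest array and TG-3 the lowest, and the genotypes overlapped. Single genes, picked after their values were seen, shifted either way on the arrays numbered 3. Krt35 was lower there, by -1.06 in WT and -1.27 in TG. Krt31 was higher by 0.61 and 0.67, and Krt33a by 0.79 and 0.70.

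Of 13 measured transcription factors of shaft and matrix differentiation, 0 passed over all genes, 6 were above 0 and 7 below. Hoxc13, which acts in the hair bulb upstream of hair keratin genes, read 7.16, 6.55 and 7.31 in WT and 7.75, 7.0 and 7.39 in TG, a difference of 0.38 ± 0.27 (SE) with overlapping arrays. Trps1, a GATA-type repressor gene, differed by 0.28 ± 0.17. Lef1, a nuclear partner of β-catenin, differed by -0.32 ± 0.27. Dlx3, a homeobox gene of the matrix and epidermis, read 9.24, 8.85 and 9.23 in WT and 8.65, 8.82 and 8.34 in TG. It was the 1 of 13 factors whose arrays did not overlap (7.69%, against 7.2% of all genes). Its difference was -0.50 ± 0.18, with an unadjusted p of 0.0308 and an adjusted p of 0.99996 in limma. Of 8 measured accessory genes of the shaft 0 passed, with S100a3, a cuticle calcium-binding protein gene, at 0.61 ± 0.48, Liph, a lipase gene, at -0.85 ± 0.80 and Padi3, a deiminase gene, at -0.21 ± 0.24. Of 9 inner root sheath genes 0 passed, with Krt25 at -0.52 ± 0.53, Krt73 at -0.62 ± 0.57 and Krt26 at 0.11 ± 0.15. On the arrays numbered 3 of both genotypes, 2 of these 9 (Krt73 and Tchh) were lower by at least 1 log2 unit, as Krtap8-1 was. So were 3 of the 8 accessory genes (Hephl1, Liph and Mt4) and 3 of the 13 factors (Foxn1, Foxq1 and Ovol1). The share over all genes was 2.62%. By that measure 1 accessory gene (S100a3), 1 factor (Dlx2) and 0 of the 9 were higher, where 1.21% of all genes were.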

How the data were processed

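RNA of sorted hair follicle stem cells was hybridised to 6 Affymetrix GeneChip Mouse Gene 2.0 ST arrays. The authors' deposited values are on a log2 scale, as read from the values. The submitters' processing notes list 2 programs, Transcriptome Analysis Console and Affymetrix Expression Console 1.4.1. The summarisation, scaling and log base are not stated there. There is no read depth, and the number of arrays limits the precision.

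Of 41345 features, 23521 had 1 symbol in the platform annotation, 1814 several and 16010 none. One-symbol features gave 22180 genes, with no filter on low values, so all 51 members were tested. All 51 matched the RefSeq gene table (GRCm38.p6). TG was compared with WT in limma 3.58.1 (R 4.3.3; two-sided lmFit and eBayes test with genotype alone in the model, Benjamini-Hochberg over all genes), a test tried on simulated data first. Named genes were those past the threshold, up to 8 each way without overlap, the 8 with the widest range, and per class the 2 with the smallest p and the 2 with the smallest range. From the follicle lists they were the 3 with the smallest p, beside a few fixed genes. The members, lists and rules were chosen with earlier results of these data known. The motifs were chosen after the values were seen.

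WT and TG arrays share the replicate numbers 1 to 3. After each genotype's mean was taken off, same-numbered arrays correlated at 0.20, 0.67 and 0.74 across genes. Each is above 0.1, so the number also served as a block. The labels state no shared litter or day, and WT-1 correlated more with TG-2 (0.50), so the pairing rests on a weak check. Alternatives were quantile normalization, the mean of a gene's features, all features, genes above the median level, array weights, no variance moderation, and leaving out arrays.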

Additional observations from a re-analysis of the deposited data

How the results depend on the processing

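No keratin-associated protein gene passed under any of the 14 alternatives run, and the replicate block, the pairing by number, also gave 0 of 51 and changed no other call (1 gene in all, Pla2g2a). The count over all genes fell from 1 to 0 with no variance moderation, without TG-1 and without both arrays numbered 3, and ran from 0 to 1 when single arrays were left out. The Pla2g2a difference was 6.4 with all arrays, 6.3 without TG-1 (adjusted p 0.065 in limma) and 6.3 without both arrays numbered 3 (adjusted p 0.173). The 4 members without overlap became 0 of the 6 members left above the median level (9.01% of genes there), 6 to 12 with single arrays left out (11.4% to 23.2% of all genes) and 19 without both arrays numbered 3 (37.7%), where fewer arrays make separation easier. The median difference of the members ran from -0.0738 to -0.00392 with single arrays left out and was -0.107 above the median level, over 6 members. That of the hair keratins was 0.0794 above the median level, where only Krt32, Krt35, Krt81 and Krt83 were left. Over all measured hair keratins it ran from -0.088 to 0.064 with single arrays left out. Counting Krtap16-3 with the glycine-tyrosine class, an alternative chosen after seeing the data, moved no class median by more than 0.0475. That is the SD within genotypes of the arrays' median deviation over all 51 members. Of 39 named genes 15 changed direction somewhere, none of them past the threshold. Leaving out single arrays gave -0.44 to 0.59 for Krtap11-1, -0.92 to 0.28 for Krtap8-1, -0.62 to 0.077 for Krtap22-2, -0.23 to 0.20 for Krtap13-1, -0.35 to 0.17 for Krtap16-1, -0.26 to 0.13 for Krtap31-1, -0.29 to 0.10 for Krtap5-4, -0.17 to 0.00073 for Krtap26-1, -0.051 to 0.015 for Krtap27-1, -0.12 to 0.039 for Krtap13, -0.31 to 1.4 for Cd34, -0.18 to 0.062 for Itga6, -0.0033 to 0.11 for Krt15, -0.89 to 0.12 for Krt25 and -0.37 to 0.047 for Padi3. Krtap27-1 was at 0.015 with quantile normalization, and array weights gave it 0.046 and Krtap13-1 -0.080. Without both arrays numbered 3, Krtap13-1 was at -0.098, Krtap27-1 at 0.029, Krtap31-1 at 0.013 and Krtap5-4 at 0.015. The cause was not tested. Low signal limits what these features can show.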
